A study of Mus musculus with 2 samples.

Results

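Intergenic peaks of acetylated histone H4 lysine 16 (H4K16ac) were described in mouse macrophages labelled WT or KAT8-cKO, read as knockout of the acetyltransferase KAT8. They were taken as the peaks of either deposited list with a −log10 q under 10 whose summit lay outside every protein-coding gene of the RefSeq annotation and more than 1 kb but at most 50 kb from the nearest end of such a gene. The rule kept 13161 of 58229 peaks in the wild-type list, or 22.6%, and 11905 of 55149 peaks in the KAT8-cKO list, or 21.6%. Another 193 wild-type and 182 KAT8-cKO peaks lay at the same distances but were stronger, and are left out by the rule.

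The cells were primary macrophages grown from mouse bone marrow in M-CSF at 20 ng/ml. Both groups received R848, an agonist of the endosomal receptor TLR7, at 100 ng/ml for 2 h, and neither group was left without it. One group was labelled WT and the other KAT8-cKO. There was 1 CUT&Tag library and 1 peak list for each, in which an antibody against H4K16ac steers a transposase to cut and tag the DNA beside it. The labels do not give the mouse strain, the age of the animals, the number of animals behind a library, the driver of the deletion or how complete it was. The mark was profiled in bulk, so fewer cells carrying it and less of it in each cell cannot be told apart. With 1 library in each group no test between genotypes was possible, and every interval below is a 95% interval that covers counting error over peaks, genes or sequence only.

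KAT8, also called MOF, is the main enzyme that places this acetyl group in mammals, as the catalytic subunit of the MSL and the NSL complexes. Acetylation at this residue loosens the packing of neighbouring nucleosomes and is found at promoters, along transcribed genes and at distal regulatory elements. Sequence between genes holds enhancers, which in macrophages are bound by lineage factors such as PU.1 and by factors activated through Toll-like receptors. It also holds the promoters of long noncoding RNAs (lncRNAs), which the rule does not remove because it uses protein-coding genes only.

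The promoter windows of 4 lncRNA genes are shown first, because they are intergenic by the rule and were covered from end to end by an intergenic peak in both lists. They are the 4 with the highest −log10 q in the weaker of the 2 lists among 14 such genes. Each window runs from 250 bases before to 50 bases after the annotated start, is 300 bases long, is written 5′ to 3′ on the strand of the gene, and comes from RefSeq on GRCm38.p6, the assembly behind mm10. Capitals mark CpG dinucleotides, the sites of DNA methylation that crowd in CpG islands.
Dancr: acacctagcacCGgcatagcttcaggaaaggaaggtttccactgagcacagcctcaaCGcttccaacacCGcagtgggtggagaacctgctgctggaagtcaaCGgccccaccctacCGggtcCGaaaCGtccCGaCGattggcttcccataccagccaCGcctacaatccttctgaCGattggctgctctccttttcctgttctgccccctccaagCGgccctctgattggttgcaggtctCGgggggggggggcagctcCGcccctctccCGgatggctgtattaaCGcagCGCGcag
5430416N02Rik: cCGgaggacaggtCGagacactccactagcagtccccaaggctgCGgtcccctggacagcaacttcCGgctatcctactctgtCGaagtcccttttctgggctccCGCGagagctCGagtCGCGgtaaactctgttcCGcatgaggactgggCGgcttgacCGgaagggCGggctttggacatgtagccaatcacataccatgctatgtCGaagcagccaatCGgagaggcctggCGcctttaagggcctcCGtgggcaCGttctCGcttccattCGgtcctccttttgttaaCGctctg
Gm12216: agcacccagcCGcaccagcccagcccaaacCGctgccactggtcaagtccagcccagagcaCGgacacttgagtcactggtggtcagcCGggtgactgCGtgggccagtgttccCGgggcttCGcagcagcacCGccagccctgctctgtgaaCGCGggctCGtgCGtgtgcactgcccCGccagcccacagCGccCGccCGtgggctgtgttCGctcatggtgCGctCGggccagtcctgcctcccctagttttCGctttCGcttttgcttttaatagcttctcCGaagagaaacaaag
Snhg8: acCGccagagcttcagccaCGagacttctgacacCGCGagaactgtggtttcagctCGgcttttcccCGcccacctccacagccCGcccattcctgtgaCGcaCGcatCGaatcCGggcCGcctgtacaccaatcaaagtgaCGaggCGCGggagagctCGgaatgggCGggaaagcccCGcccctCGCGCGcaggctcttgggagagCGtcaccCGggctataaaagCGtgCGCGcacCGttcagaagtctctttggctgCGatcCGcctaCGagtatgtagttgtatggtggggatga

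The Dancr window lies at chr5:74092810-74093109 on the plus strand and holds 18 CpG. Over it stood a wild-type peak of 4.37-fold with 21 fragments and a KAT8-cKO peak of 4.88-fold with 27 fragments, at −log10 q of 5.64 and 8.37. Folds here are the authors' peak caller's own values over its local background, and fragments are the pile-up of DNA fragments at the summit recovered from the deposited values. Dancr encodes a lncRNA, and the nearest protein-coding gene is the deubiquitinase gene Usp46, 24.8 kb away. The window of 5430416N02Rik, at chr5:100429486-100429785 on the minus strand, holds 22 CpG and lies 12.3 kb from Lin54, a subunit of the DREAM cell cycle complex, by the summit of the wild-type peak. Its peaks had 22 fragments in the wild-type list and 24 in the KAT8-cKO list. The window of Gm12216, at chr11:53859207-53859506 on the minus strand, also holds 22 CpG, and its peaks had 20 fragments in each list. That of Snhg8, a host gene of a small nucleolar RNA, lies at chr3:123508287-123508586 on the minus strand with 30 CpG, and its peaks had 21 and 20 fragments. Since the 4 genes were picked for strength in both lists, these pile-ups describe them and compare nothing.

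Across all 3199 lncRNA genes with a promoter window wholly within the intergenic sequence of the rule, 5.94% had a window overlapped by a wild-type intergenic peak and 4.56% by a KAT8-cKO one. By gene, 73 had such a peak in both lists, 117 in the wild-type list only, 73 in the KAT8-cKO list only and 2936 in neither. CpG content followed this order. The median number of CpG per window was 14.5 for genes with a peak in both lists, 7 for those with one in the wild-type list only, 5 for those with one in the KAT8-cKO list only and 3 for those with none. At least 15 CpG, a limit set after the counts were seen, were found in 36 of the 73 genes with a peak in both lists, or 49.3% (Wilson interval 38.2 to 60.5). The share was 2.59% (2.07 to 3.23) of the genes with a peak in neither, and 4.60% of all 3199. The sequence CCGGAA, searched on both strands and itself holding a CpG, was in 19.2% of the windows with a peak in both lists and in 7.78% of all. The sequence CCAAT, which holds none, was in 32.9% and 39.6%. A match is only a run of letters and was not tied to the binding of any factor.

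**Figure D1:**
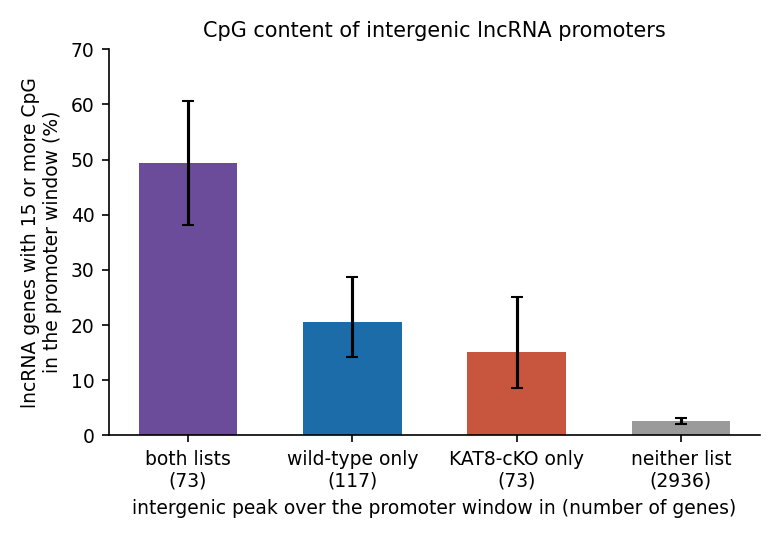
Share of intergenic lncRNA genes with at least 15 CpG in the promoter window (vertical axis, percent) by the list in which an intergenic H4K16ac peak overlapped the window (horizontal axis, number of genes in brackets); bars are shares and lines are 95% Wilson intervals. The share was 49.3% for genes with a peak in both lists and 2.59% for genes with a peak in neither.

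The peaks were denser beside the ends of noncoding genes in general. Of the wild-type intergenic peaks, 1272 had a summit within 1 kb of an end of a noncoding gene, or 9.66% (9.17 to 10.2), and of the KAT8-cKO peaks 1113, or 9.35% (8.84 to 9.89). Such ends take up 5.69% of the intergenic sequence. Beside lncRNA ends there were 40.1 wild-type and 33.7 KAT8-cKO peaks per Mb, against 21.3 and 19.2 over all 619 Mb of the sequence that meets the distance rule. Beside the ends of pseudogenes there were 27.5 and 26.0 per Mb. Beside the ends of miRNA genes, which take up 0.319 Mb, there were 20 wild-type and 19 KAT8-cKO peaks, or 62.7 and 59.6 per Mb. Beside the ends of other noncoding genes there were 150 and 128, or 68.6 and 58.5 per Mb. Distance to protein-coding genes was not matched in these densities. Peaks beside any noncoding end were overlapped by the other list in 30.0% of wild-type (27.5 to 32.5) and 36.1% of KAT8-cKO cases (33.3 to 39.0).

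Most of the intergenic peaks were weak. The median wild-type peak measured 279 bp, with 12 fragments, a fold of 2.83 and −log10 q = 1.18. The median KAT8-cKO peak measured 269 bp, with 13 fragments, a fold of 2.78 and −log10 q = 1.01. A q-value under 0.05 was reached by 5355 wild-type peaks, or 40.7%, and by 5060 KAT8-cKO peaks, or 42.5%. The peak caller's genome-wide background, the lowest level any peak was set against, was 3.09 fragments in the wild-type list and 3.68 in the KAT8-cKO list, a ratio of 1.19. Of the intergenic peaks, 41.2% and 49.6% stood on exactly that level. The number of reads behind either list is not stated, and depth is seen here only through this level.

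Strong peaks, those with a −log10 q of at least 5, numbered 322 in the wild-type list, or 2.45% of its intergenic peaks (2.196 to 2.72), and 257 in the KAT8-cKO list, or 2.16% (1.91 to 2.44). Over all positions under the same upper limit, 5.19% of wild-type and 3.56% of KAT8-cKO peaks were that strong, so the share of strong peaks between genes was below that of the lists as a whole. The share was high at gene ends only, with 17.3% and 9.73%. Inside genes it was 2.70% and 2.13%, and more than 50 kb from any gene 3.12% and 2.94%, near the shares between genes. The ratio of strong KAT8-cKO to strong wild-type peaks was 0.798 between genes. Within 1 kb of a gene end it was 0.539, with 910 against 1688 peaks, inside genes 0.749, with 543 against 725, and more than 50 kb from any gene 1.00, with 226 against 225. Such counts move with sequencing depth and background as well as with the mark, and they are no measure of change at single peaks. On the genome-wide background a wild-type peak passes this limit with 18 fragments and a KAT8-cKO peak with 20. Pairs of overlapping peaks give both pile-ups at the same place, at any strength under the upper limit. A pair needs a peak called in both lists. The limits of calling and of strength, set over unlike backgrounds, therefore bound the pile-ups of both peaks. Among the 3316 pairs of overlapping intergenic peaks the median was 13 fragments in the wild-type and 14 in the KAT8-cKO library, which is 4.20 and 3.801 times the genome-wide background. In the 6044 pairs at gene ends it was 17 and 16 fragments, or 5.50 and 4.34 times that background.

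The intergenic peaks were sparser farther from genes. The median distance to the nearest gene end was 11.9 kb in the wild-type and 12.5 kb in the KAT8-cKO list. Between 1 and 2 kb from a gene end there were 29.0 wild-type peaks per Mb (exact Poisson interval 27.1 to 30.9), and between 20 and 50 kb there were 16.6 (16.1 to 17.1). In the KAT8-cKO list the densities were 25.5 (23.8 to 27.3) and 15.8 (15.3 to 16.3) per Mb. In each list the density was lower in every successive distance bin. The share of strong peaks was not lower far from genes: it was 1.51% (0.900 to 2.51) at 1 to 2 kb and 2.72% (2.26 to 3.25) at 20 to 50 kb in the wild-type list, and 1.10% (0.579 to 2.08) and 2.59% (2.14 to 3.13) in the KAT8-cKO list. By the side of the gene, where strand was known, the wild-type density was 20.3 per Mb upstream of gene starts and 21.9 per Mb beyond 3′ ends, and the KAT8-cKO density was 18.2 and 20.2 per Mb. The sides differed more close to genes. At 1 to 2 kb the wild-type densities were 24.6 (22.0 to 27.4) and 32.9 (29.8 to 36.3). The KAT8-cKO ones were 21.9 (19.5 to 24.6) and 29.7 (26.7 to 32.8). At 20 to 50 kb they were 16.8 and 16.5 in the wild-type and 15.5 and 16.3 in the KAT8-cKO list.

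Density also differed with what stood at the gene end itself. Where any peak of the same list had its summit within 1 kb of the nearest gene end, there were 30.6 wild-type intergenic peaks per Mb (29.6 to 31.6), against 18.97 (18.6 to 19.4) where there was none. In the KAT8-cKO list these densities were 24.5 (23.6 to 25.4) and 18.04 (17.7 to 18.4). At 1 to 2 kb the gap over all gene ends was small, with 30.9 against 28.4 per Mb in the wild-type list and overlapping intervals. Upstream of gene starts it was wider there, with 29.6 (24.9 to 34.9) against 21.7 (18.7 to 25.1). Beyond 3′ ends it was 34.8 against 32.8. In the KAT8-cKO list these densities were 25.2 against 20.3 upstream of starts and 26.7 against 29.9 beyond 3′ ends. Over all gene ends the gap was widest at 5 to 10 kb when taken as a difference in density, not as a ratio. The wild-type densities there were 39.9 per Mb (37.2 to 42.6) against 22.0 (21.0 to 23.0). In the KAT8-cKO list they were 29.0 (26.7 to 31.5) against 19.6 (18.7 to 20.6). At 20 to 50 kb both densities were lower, at 26.2 against 14.4 in the wild-type and 21.1 against 14.6 in the KAT8-cKO list. Gene density and base composition were not matched between the 2 kinds of end, and their part in the difference was not tested.

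**Figure D2:**
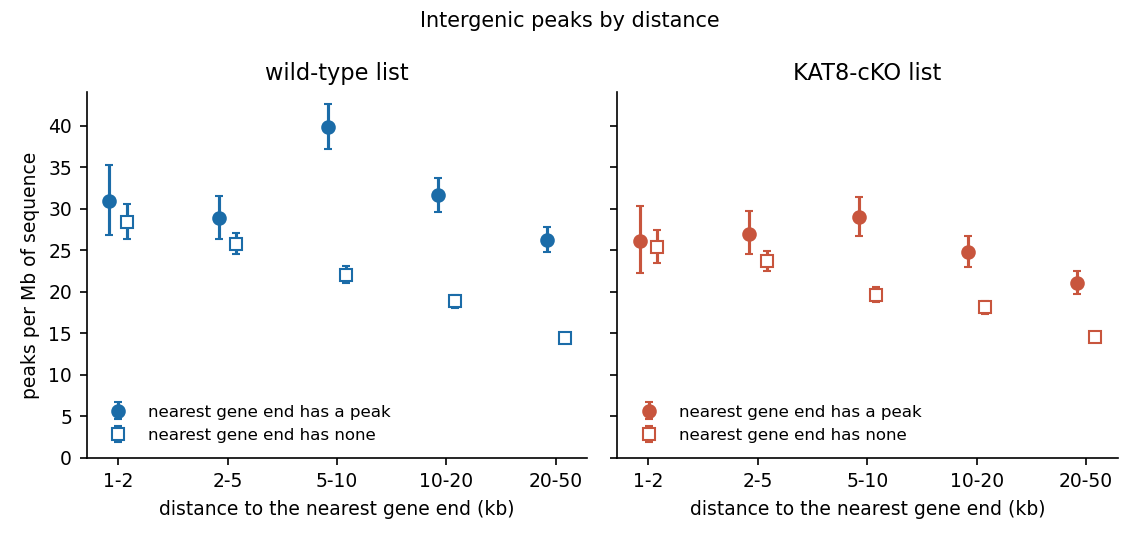
Intergenic peaks per Mb of eligible sequence (vertical axis) by distance to the nearest gene end in kb (horizontal axis), for gene ends with and without a peak of the same list within 1 kb; points are densities and lines are 95% exact Poisson intervals. In the wild-type list the density at 5 to 10 kb was 39.9 beside ends with a peak and 22.0 beside ends without one.

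Most intergenic peaks had no overlap with the other list. At least 1 bp was overlapped for 3302 wild-type peaks, or 25.1% (24.4 to 25.8), and for 3351 KAT8-cKO peaks, or 28.1% (27.3 to 29.0). Over all positions under the same strength limit the shares were 31.8% and 34.8%, and within 1 kb of a gene end they were 60.2% and 68.9%. Inside genes they were 25.7% and 27.7%, and more than 50 kb from any gene 28.4% and 26.9%, nearer to those between genes than to those at gene ends. The shared part was larger among stronger peaks. Among peaks with a q-value of 0.05 or more, 16.2% of wild-type and 19.4% of KAT8-cKO intergenic peaks were shared, and among strong ones 89.1% (85.3 to 92.1) and 91.4% (87.4 to 94.3). Strong peaks of all positions were shared in 92.8% of wild-type and 94.9% of KAT8-cKO cases, and those at gene ends in 94.5% and 98.6%. In the weaker bins the distance between the positions was wider: at a −log10 q of 2 to 3, 35.5% (33.4 to 37.8) of wild-type intergenic peaks and 64.3% (62.0 to 66.5) of wild-type gene end peaks were shared. The summits of shared intergenic peaks lay a median of 116 bp apart.

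**Figure D3:**
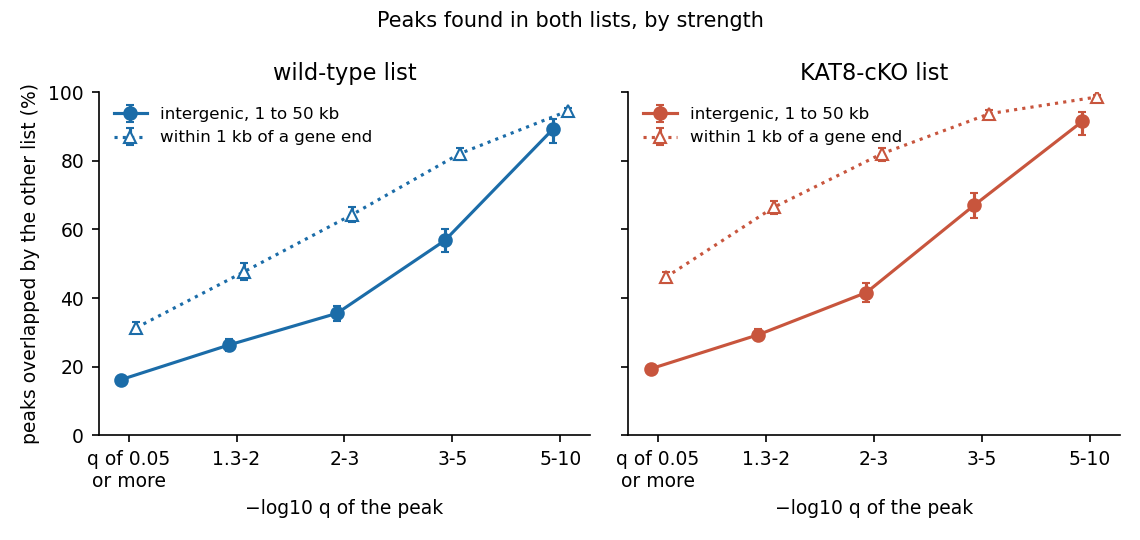
Share of peaks overlapped by at least 1 bp by the other list (vertical axis, percent) by −log10 q (horizontal axis), for intergenic peaks (filled circles) and peaks within 1 kb of a gene end (open triangles); lines on the points are 95% Wilson intervals. Intergenic wild-type peaks go from 16.2% to 89.1% and lie below gene end peaks in each of the 5 bins of both lists.

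The partners of strong peaks in the other list ranged from none to a stronger peak. Of the 322 strong wild-type peaks, 82 overlapped an intergenic KAT8-cKO peak that was also strong, 145 overlapped a weaker one with a q-value under 0.05, 30 overlapped one with a q-value of 0.05 or more, and 29 overlapped a peak above the upper limit. The remaining cases were 1 partner in another position class and 35 peaks without a partner. Of the 257 strong KAT8-cKO peaks, 81 overlapped a strong intergenic wild-type peak, 105 a weaker one with a q-value under 0.05, 16 one with a q-value of 0.05 or more and 32 a peak above the upper limit, and 22 had no partner. The strongest wild-type peak with no partner lay at chr7:128332537-128333324, 34.8 kb from Rusf1, with a fold of 5.76 and 24 fragments. The strongest KAT8-cKO peak with none lay at chr17:35943708-35944077, 11.6 kb from Ppp1r10, the gene of a regulatory subunit of protein phosphatase 1, with a fold of 4.96 and 27 fragments. The next wild-type peaks without a partner were nearest to Lsm11, a protein of histone mRNA processing, Slc4a1ap, Ceacam14 and Nlgn3, a synaptic adhesion protein on the X chromosome, with folds between 5.14 and 5.53. The next KAT8-cKO ones were nearest to Cyp2c29, Gm52481 on the Y chromosome, Mid1 and Nr1d2, a nuclear receptor of the circadian clock, with folds between 3.81 and 5.12. Of these, the Cyp2c29, Gm52481 and Mid1 peaks stood on local backgrounds of 7.90, 9.24 and 8.52 fragments. Those of the 5 wild-type peaks were 3.09 to 4.06. The Cyp2c29 peak, at chr19:39260553-39260809, lay next to a strong wild-type peak at chr19:39259748-39260262 without overlapping it.

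Pairs that were strong in both lists numbered 83, made of 82 wild-type and 81 KAT8-cKO peaks. Their wild-type peaks had 69 nearest genes, which is 0.315% of the 21883 protein-coding genes. A strong wild-type peak was beside 1.28% of these genes and a strong KAT8-cKO peak beside 1.03%. Joined over gaps of up to 100 kb the pairs formed 66 loci, of which 59 held a single pair and 4 held at least 3 pairs, 18 in all. Of the 69, 13 had a Gm number or a Rik name, as do 7.99% of all protein-coding genes, and 6 were olfactory or vomeronasal receptor genes, as are 6.69% of all.

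Among the strongest isolated pairs, that at chr3:146560004-146560503 lay 9.43 kb beyond the 3′ end of Dnase2b, a nuclease that degrades DNA in lens fibre cells. It had 24 wild-type and 25 KAT8-cKO fragments, with folds of 5.71 and 5.55. The pair at chr5:96862079-96862333 lay 16.2 kb from Anxa3, a calcium-dependent phospholipid-binding annexin, and had 22 and 24 fragments. The limits on −log10 q in both lists confine the pile-ups of such pairs, so their likeness in the 2 libraries is set by the choice. The pair at chr9:71323786-71324128 lay 27.7 kb beyond the 3′ end of Aldh1a2, an enzyme of retinoic acid synthesis, with 22 and 26 fragments. That at chr14:79663821-79664838 lay 2.14 kb from the start of Cnmd, a cartilage glycoprotein, with 27 and 30 fragments. That at chr13:103996219-103996562 lay 26.7 kb from Nln, a peptidase that cleaves neurotensin, with 22 and 23 fragments. The widest of these was at chr15:7801166-7802868, 1703 bp in the wild-type and 1638 bp in the KAT8-cKO list, 8.33 kb from the start of Gdnf, a neurotrophic factor, with 23 and 26 fragments. The other isolated or small loci among the 25 highest pairs were nearest to 4930503E14Rik, A930007A09Rik, Lyzl1, Dsg1b, Gm2956, Apba2, Coil, Vmn1r238, Gm5458, Ano5, Kiz, Gm51591 and Cyp2c29. The pair nearest to Coil by its wild-type summit was nearest to Elobl by its KAT8-cKO summit.

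The 83 pairs fell into those on an ordinary and those on a raised local background. A background of at least 2 times the genome-wide level, a limit chosen after the values were seen, was present in both lists for 23 pairs, in 1 list for 3 and in neither for 57. Among all intergenic peaks it was found for 449 wild-type ones, or 3.41%, and 342 KAT8-cKO ones, or 2.87%. Over all positions under the same strength limit it was found for 3.64% and 1.85%. Those peaks were mostly weak, unlike the pairs. Among strong intergenic peaks a raised background was more frequent, with 61 of 322 wild-type ones, or 18.9%, and 57 of 257 KAT8-cKO ones, or 22.2%. Intergenic peaks of any strength on a raised background were shared in 55.9% (51.3 to 60.4) of wild-type and 62.3% (57.0 to 67.3) of KAT8-cKO cases, against 24.0% and 27.1% of the others. Strength was not matched in this comparison. Among strong wild-type intergenic peaks the shares were 95.1% on a raised background and 87.7% for the others. Among strong KAT8-cKO ones the order was reversed, with 89.5% and 92%, and the intervals overlap in each list. Fold and fragments go apart on a raised background. The pair at chr6:47751072-47751319, 12.8 kb from Gm40363, had the highest −log10 q in the weaker list, 9.25, with folds of only 2.06 and 2.21, on pile-ups of 130 and 110 fragments over backgrounds of 62.6 and 49.3. The other pairs in the same 17.5 kb were nearest to Gm40363 and to Pdia4, a disulfide isomerase of the endoplasmic reticulum.

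**Figure D4:**
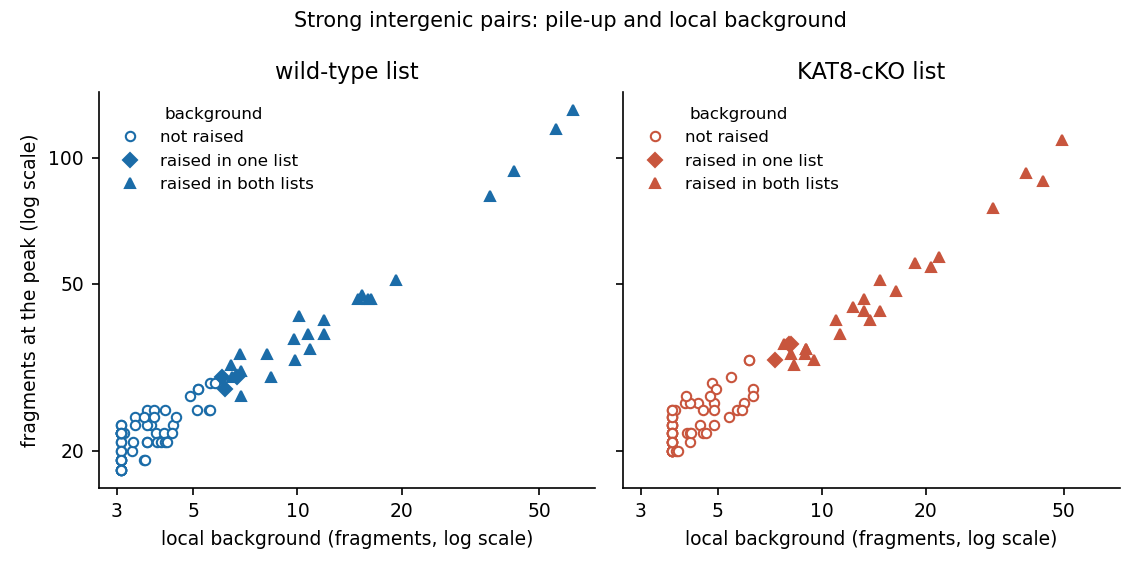
Fragments at the summit (vertical axis, log scale) against the local background in fragments (horizontal axis, log scale) for the 83 pairs strong in both lists; each point is 1 pair, shown with its wild-type values on the left and its KAT8-cKO values on the right. The 23 pairs on a background raised in both lists lie to the right, up to 130 fragments over a background of 62.6, the 3 raised in 1 list lie at their left edge, and the 57 raised in neither lie nearest to the genome-wide level.

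The largest locus held 9 of the 83 pairs in 178 kb at chr1:84975901-85154181, nearest to A530032D15Rik, Gm38510 and Slc16a14, a member of the monocarboxylate transporter family. It held 27 intergenic peaks in each list, of which 11 wild-type and 12 KAT8-cKO ones were strong. Backgrounds at its pairs ran from 6.06 to 10.9 fragments in the wild-type and from 8.02 to 14.7 in the KAT8-cKO library. Another locus, at chr8:20588191-20682611, held 3 pairs nearest to Gm21119. The genes with the most intergenic peaks included Gm21119 and A530032D15Rik of these loci. Gm21119 was nearest to 24 wild-type and 25 KAT8-cKO peaks, Gm15319 to 20 and 26, A530032D15Rik to 17 and 20, Gm40469 to 17 and 17, and Gm3183, which had no strong peak in either list, to 14 and 15. For Gm21119 this came to 303 wild-type and 316 KAT8-cKO peaks per Mb. Gm15319, Gm40469 and Gm21119 are neighbours, all within chr8:20337664-20646749. No source here states how reads that align to several copies of a sequence were treated, and its part in these counts was not tested.

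The X chromosome held few intergenic peaks. There were 193 wild-type and 159 KAT8-cKO ones in 45.5 Mb of eligible sequence, or 4.25 (3.67 to 4.89) and 3.50 (2.98 to 4.09) per Mb, against 23.4 and 21.2 per Mb on autosomes. The shared part of the X-linked peaks was the larger, although with wide intervals. The shares were 34.7% (28.4 to 41.7) against 24.98% (24.2 to 25.7) in the wild-type list and 42.8% (35.3 to 50.5) against 28.0% (27.2 to 28.8) in the KAT8-cKO list. Strength, with which sharing rises, was not matched here. Of the X-linked peaks, 10 of 193 wild-type and 7 of 159 KAT8-cKO ones were strong. On autosomes 310 of 12916 and 247 of 11706 were. The single pair strong in both lists on the X chromosome lay 4.68 kb from Rai2, with 18 and 21 fragments. The Y chromosome was sparser still, with 52 and 40 intergenic peaks in 22.8 Mb, or 2.28 (1.70 to 2.99) and 1.75 (1.25 to 2.39) per Mb.

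Genes of the macrophage response were compared with the background of all genes next. Of the 21883 protein-coding genes, 33.0% were the nearest gene of a wild-type and 30.9% of a KAT8-cKO intergenic peak, and 20.8% had one in each list. Of 28 immediate early genes, which are switched on within minutes of a stimulus, a wild-type peak was beside 22, a KAT8-cKO peak beside 23, and both beside 20. There were 63 peaks in either list, or 52.0 (40.0 to 66.6) per Mb of the intergenic sequence nearest to these genes, which is above the 21.3 and 19.2 per Mb over all genes. Genes of the interferon response had 39 wild-type and 40 KAT8-cKO peaks, or 43.2 (30.7 to 59.0) and 44.3 (31.6 to 60.3) per Mb. Inflammatory cytokine genes had 36 and 30, or 40.9 and 34.1 per Mb, and macrophage identity genes 48 and 36, or 39.2 and 29.4 per Mb. Lists outside the macrophage response lay on both sides of the density over all genes. Fibroblast genes had 5 and 4 peaks, or 8.04 (2.61 to 18.8) and 6.43 (1.75 to 16.5) per Mb, and genes of unrelated tissues 15 and 17, or 15.999 and 18.1 per Mb. T cell genes had 7 and 13, or 22.4 (8.99 to 46.1) and 41.5 (22.1 to 71.0) per Mb, and B cell genes 8 and 9, or 28.3 (12.2 to 55.8) and 31.9 (14.6 to 60.5) per Mb. Neutrophil genes had 4 and 5, or 18.4 and 23.0 per Mb, dendritic cell genes 9 and 5, or 26.5 and 14.7 per Mb, and erythroid and megakaryocyte genes 1 and 2, or 4.85 and 9.70 per Mb. Of the 12 T cell genes, 5 and 3 had a peak, and 9 of the 13 KAT8-cKO peaks were beside Bcl11b. The lists were not matched for the density of genes around them.

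**Figure D5:**
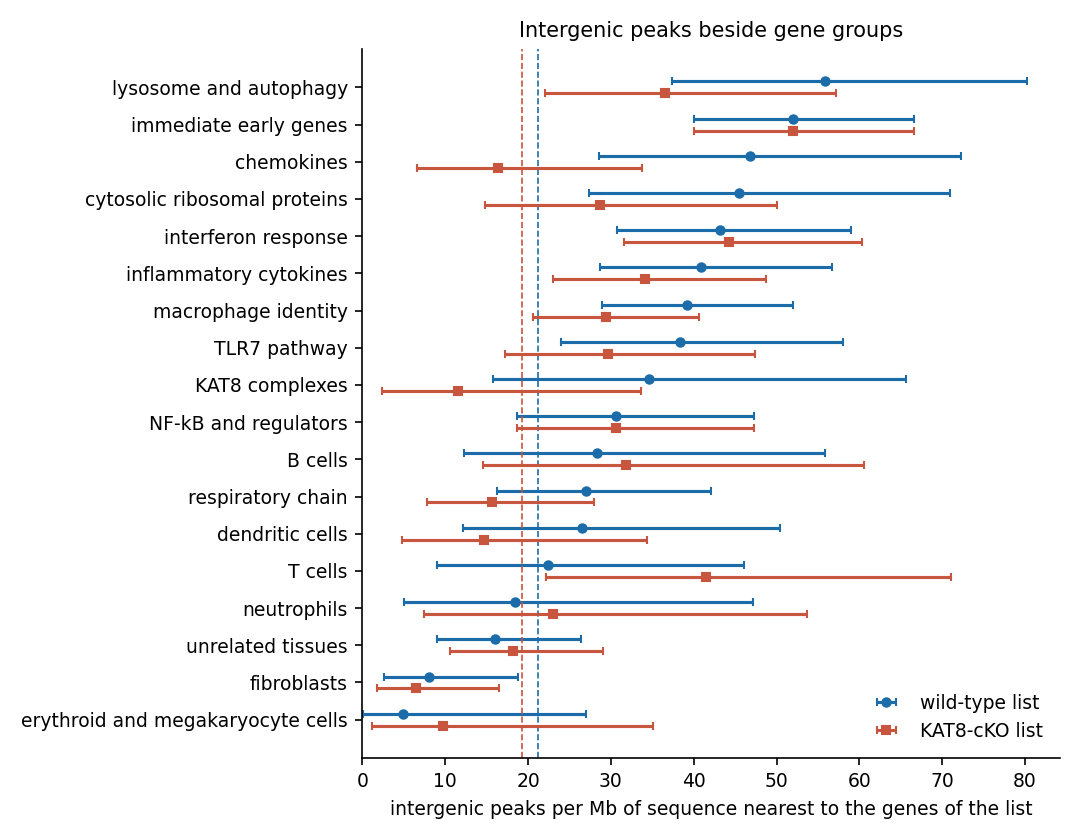
Intergenic peaks per Mb of the eligible sequence nearest to the genes of each list (horizontal axis), for 18 gene lists (vertical axis) in both peak lists; points are densities, lines are 95% exact Poisson intervals and dashed lines are the density over all genes. Immediate early genes stand at 52.0 in both lists and fibroblast genes at 8.04 and 6.43, while chemokine genes stand at 46.8 in the wild-type and 16.4 in the KAT8-cKO list.

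Chemokine genes were the list with the widest gap between the libraries in number of peaks. Of 19 genes, 10 had one or more peaks in the wild-type and 6 in the KAT8-cKO list, and 4 in each. There were 20 wild-type and 7 KAT8-cKO peaks, or 46.8 (28.6 to 72.3) and 16.4 (6.59 to 33.8) per Mb, and these intervals overlap. Ccl5, which draws T cells and monocytes, had 4 and 2, the strongest at chr11:83540975-83541535 with a fold of 3.91 and 24 fragments in the wild-type list and no partner. Ccl6 had 4 wild-type peaks and none in the KAT8-cKO list, and Cxcl1, a neutrophil attractant, had 2 and none. The strongest Ccl6 peak stood on 15 fragments and those of Cxcl1 on 12, set against a median of 12 over all wild-type intergenic peaks. The 1 pair that was shared lay 20.2 kb from Ccl5, with 11 wild-type and 14 KAT8-cKO fragments. Genes of the KAT8 complexes had 9 and 3 peaks, of which 2 in each list were beside Phf20, the reader subunit of the NSL complex. The stronger of these pairs, at chr2:156190275-156190885, had 23 and 21 fragments. Lists of housekeeping function reached densities like those of the response lists. Lysosome and autophagy genes had 29 and 19 peaks, or 55.8 (37.4 to 80.2) and 36.6 (22.0 to 57.1) per Mb, the highest wild-type density of the 18 lists. Of these, 7 wild-type and 9 KAT8-cKO peaks were beside Atg7 alone, where all shared pairs stood on a raised local background. Cytosolic ribosomal protein genes had 19 and 12, or 45.4 (27.3 to 70.9) and 28.7 (14.8 to 50.1) per Mb, and respiratory chain genes 19 and 11, or 26.9 (16.2 to 42.1) and 15.6 (7.79 to 27.9) per Mb. Genes of the TLR7 pathway had 22 and 17, or 38.3 and 29.6 per Mb, and those of NF-kB and its regulators 20 and 20, or 30.6 per Mb in each list. The strongest peak beside a TLR7 pathway gene was a wild-type one 35.8 kb from Map3k7, with 18 fragments, and beside a gene of NF-kB and its regulators one 2.45 kb from Traf2, an adaptor of TNF receptors, with 21 fragments against 13 in its KAT8-cKO partner. Rpl14, of the large ribosomal subunit, and Cycs, which encodes cytochrome c, carried the strongest peaks of their lists, with 16 and 17 wild-type fragments. Among marker genes of other cell types the strongest was the KAT8-cKO peak beside Bcl11b of T cells, with 21 fragments and a −log10 q of 5.56. The strongest of the other such lists were wild-type peaks beside Batf3 of dendritic cells, with 17 fragments, Ly6g of neutrophils, with 15, and Col1a1 of fibroblasts, with 13, and a KAT8-cKO peak beside Cd22 of B cells, with 15.

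Pairs beside single genes went either way, in some cases beside the same gene. At Nr4a3, an immediate early nuclear receptor, the wild-type peak at chr4:48042765-48043668, 2.06 kb from the start, had a fold of 5.13 and 27 fragments. It overlapped 2 KAT8-cKO peaks of 17 and 14 fragments with folds of 2.93 and 2.59. At Irf1, a transcription factor of the interferon response, the peak at chr11:53763197-53764211, 6.16 kb from the start, had 30 fragments and a −log10 q of 7.63, and its strongest KAT8-cKO partner had 23 and 3.73, on a local background of 6.40 and 6.16 fragments that counts as raised in the wild-type list. Rsad2, an antiviral effector induced by interferon, had 21 fragments and a partner of 13. In these pairs the wild-type pile-up was the higher. Another Irf1 pair had 18 and 19 fragments, but its KAT8-cKO peak also overlapped the wild-type peak of 30 fragments. An Irf1 pair 41.0 kb from the gene had 14 wild-type and 10 KAT8-cKO fragments. At Il12a, which encodes the p35 subunit of interleukin 12, the pair at chr3:68746348-68746639, 47.9 kb beyond the 3′ end, had 14 wild-type and 23 KAT8-cKO fragments, with folds of 3.66 and 5.12. At Irf5, a transcription factor downstream of TLR7, 1 pair had 10 and 19 fragments and another, at chr6:29524074-29524680, had 18 and 15. At Bcl11b, a transcription factor of T cells, there were 14 and 21. At Dusp1, a phosphatase that ends MAP kinase signalling, 3 pairs had 13 and 19, 14 and 14, and 16 and 14. At Trem2, a lipid receptor of macrophages, there were 19 and 20, and at Map3k7, the kinase TAK1, 14 and 16. Over the 24 immediate early pairs the median was 16 wild-type and 14 KAT8-cKO fragments, over the 14 interferon response pairs 16.5 and 14, and over the 15 macrophage identity pairs 17 and 16. The wild-type median was also higher over the ribosomal protein pairs, with 16 and 13, and the respiratory chain pairs, with 17 and 14. So it was over the NF-kB pairs, with 17 and 15, and the KAT8 complex pairs, with 19.5 and 17.5. The order was the other way over the 10 inflammatory cytokine pairs, with 10 and 13, and the 9 TLR7 pathway pairs, with 14 and 15, as it was over all 3316 intergenic pairs. Chemokine, T cell, B cell, neutrophil and unrelated tissue pairs also had this order. Lysosome and dendritic cell pairs had equal medians. A peak that overlapped 2 peaks of the other list, as at Nr4a3, counts in 2 pairs. These fragment numbers are single counts in single libraries, and with the lower genome-wide background of the wild-type list no difference at any gene was tested.

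The limits of the rule cut through a continuous range. The closest intergenic peaks lay 1001 bp from a gene end, beside Il1rn in the wild-type and Gen1 in the KAT8-cKO list, and the nearest ones left out lay at 1000 bp, beside Gbf1 and Cd34. The farthest lay at 49989 bp, beside Cp, and 49998 bp, beside Podxl, while peaks beside Brinp3 at 50030 bp and Chrd at 50019 bp were left out. The strongest kept had a −log10 q of 9.98, beside Olfr384, and 9.96, beside Lyzl1, and the first above the limit had 10.1 beside Man1a and 10.03 beside Cd24a.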

How the data were processed

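H4K16ac CUT&Tag peak lists of 1 wild-type and 1 KAT8-cKO library were used, grouped by their genotype labels. The submitters' processing notes name MACS2 2.2.7.1, Bowtie 0.12.8, DiffBind and the build mm10 without saying what each did. Depth is unknown, since the number of reads, the settings of the peak caller and any control library are not stated. Each list holds, as the authors deposited them, a score per peak, a fold over local background (a ratio), −log10 p and −log10 q, and the summit offset. The deposited folds and q-values were used only to describe, rank and filter peaks within a list.

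The fragments at a summit and the local background were recovered as the whole number and the Poisson mean that give both the deposited fold, with 1 added to each, and the deposited p-value. This matched the p-value within 0.001 for 100% of 57042 wild-type and 54406 KAT8-cKO peaks under the strength limit, and the backgrounds above the genome-wide level fell on steps of 0.02 within 0.002 for 100%, where 20% would by chance. Summits were placed against 21883 protein-coding genes of the RefSeq table on GRCm38.p6, with strand known for 17491. Densities are per Mb of sequence meeting the same distance rule. A peak was shared if at least 1 bp overlapped a peak of the other list. Shares carry Wilson and densities exact Poisson 95% intervals. Python 3.11.15, pandas 2.3.3, scipy 1.17.1 and statsmodels 0.14.6 were used. Tested on simulated data, position, overlap and pile-up recovery returned the known answers for 100% of cases.

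The peaks, the 18 gene lists with 400 entries (398 in the table) and the rules were chosen with earlier results of these data known. Genes were named if nearest to the 25 strong pairs with the highest −log10 q in the weaker list, to the 5 strongest peaks of each list without overlap, if among the 5 genes with the most peaks, or if a gene list member beside a strong pair or the list's strongest peak. The lncRNA genes, the genes at the limits, Rai2 and the gene list members beside shared pairs were named after their values were seen. Genes that this rule takes but that the text does not name are not reported here. Alternatives changed the gene set, distance limits, strength limits, position and overlap.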

Additional observations from a re-analysis of the deposited data

How the results depend on the processing

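No paired analysis was possible because each genotype had 1 library. With 1 library per group the spread between animals is unknown, depth is known only through the background level, and base composition and mappability were not analysed here. Counts moved with the limits that define them. With q under 0.05 in both lists the wild-type and KAT8-cKO peaks numbered 5355 and 5060, and among the strongest 20000 of each list 3631 and 3679. Strong peaks numbered 209 and 155 up to 20 kb and 515 and 439 without the upper strength limit. Pairs strong in both lists numbered 53 up to 20 kb, 288 without the upper limit, 400 with a −log10 q of at least 5 in 1 list and 312 with at least 3 in both.

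The shared percentage stayed between 18.8 and 29.2 in each case that moved it beyond its interval. Without the upper limit it was 26.2 for wild-type and 29.2 for KAT8-cKO peaks, with an overlap of at least 50% of the shorter peak 21.3 and 23.9, and with summits at most 200 bp apart 18.8 and 20.9. Among the strongest 20000 it was 27.7 for wild-type and 27.9 for KAT8-cKO peaks, with overlapping intervals. When noncoding genes were included it was 26.9 for KAT8-cKO peaks. The KAT8-cKO share was the higher in each setting that gave both. In the main setting 3302 and 3351 peaks were overlapped, so division by the shorter KAT8-cKO list gives the larger share. The next alternatives were chosen after seeing the data. Without peaks on a raised background the shares were 24.0 and 27.1, and 57 strong pairs were left. With q under 0.05, chemokine genes had 13 wild-type and 3 KAT8-cKO peaks, immediate early genes 27 and 25, and the X chromosome 107 and 89. In all, 55 of 83 recomputed values stayed within 1.5 times the count or within the interval of the share. The cause of the moves was not tested beyond the limits' own construction.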

Other observations

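The median distance from an intergenic peak to the next peak of the same list was 7.34 kb in the wild-type and 8.29 kb in the KAT8-cKO list, and 16.9% and 17.0% had another peak within 2 kb. The autophagy gene Atg7, whose product drives the lipidation of LC3, was nearest to 7 wild-type and 9 KAT8-cKO intergenic peaks. Its strongest ones were different places in the 2 lists. The wild-type peak at chr6:114596864-114597517 had 36 fragments against 27 in the overlapping KAT8-cKO peak, and the KAT8-cKO peak at chr6:114601785-114602303 had 43 against 28, all on a raised local background of 9.44 to 10.9 fragments. At Fcgr3, which encodes a macrophage receptor for the Fc part of antibodies, 7 wild-type and 4 KAT8-cKO intergenic peaks were found, also mostly on a raised background, and the strongest had 51 and 43 fragments. Near Gata4, a transcription factor of heart and gut in the list of unrelated tissues, a pair at chr14:63280427-63280699 had 15 and 17 fragments on the genome-wide background.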
